A study of Mus musculus with 146 samples.

Results

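The Zfp genes of the mouse are named for zinc finger proteins, and 229 of the 362 Zfp rows of the deposited tables reached a mean of at least 5 TPM (an abundance scaled for transcript length and sequencing depth) in newborn ovarian germ cells. A row was chosen when its symbol was Zfp followed by a number and at most 1 letter and when its mean over the libraries with Ddx4 of at least 1 TPM (all but 1 of 146) reached that level, and Zfp36 was left out by name. The tables list 52605 genes in all, of which 8813 protein-coding genes reached the same mean. TPM chose the 229 genes, so their mean levels are a description and were not tested. The genes just inside the limit were Zfp710 at 5.04, Zfp59 at 5.08, Zfp652 at 5.09, Zfp90 at 5.16 and Zfp81 at 5.16 TPM. Just outside lay Zfp667 at 4.98, Zfp202 at 4.96, Zfp160 at 4.86, Zfp358 at 4.85 and Zfp583 at 4.74 TPM. Of the rows left out 83 had a mean between 1 TPM and the limit, 50 had a mean under 1 TPM and 4 of these 50 were listed at 0 in all cells. Of the 229 genes 226 are protein coding and 3 are transcribed pseudogenes (Zfp264, Zfp389 and Zfp783).

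RNA was profiled by Smart-seq2 in 146 libraries of single cells. The cells were picked from 5 ovaries of C57/BL6J pups of 1 litter at day 0.5 after birth, with ERCC spike-in RNA added to each cell. No treatment or mutant was compared, and the labels name no animal or plate for a cell, so the cells form a single sample, within which nothing was tested. Germ cells of the newborn ovary are leaving cysts and entering primordial follicles. They do so out of step with each other, so a single day holds germ cells of several states.

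A zinc finger of the C2H2 kind is a short loop of protein held by a zinc ion, and a row of such fingers can read a stretch of DNA. Many Zfp proteins also carry a KRAB box, which recruits Trim28 and the histone methyltransferase Setdb1 and through them silences retroelements and keeps the marks of imprinted genes. Other Zfp proteins carry a SCAN box, through which they pair with each other, or act in splicing, ribosome assembly or the spindle.

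The 146 libraries were not all separate cells. In 7 pairs the libraries correlated over coding genes at r between 0.989 and 0.996, whereas no other pair of libraries exceeded 0.764. Within a pair 3 to 9 of the 229 Zfp genes were at 1 TPM or more in 1 library but not in the other, against 60 to 153 between different cells. The Zfp genes seen in both libraries of a pair differed by a median of 0.08 to 0.13 on the log2 scale, against 0.69 to 4.18 between different cells. The counts of a pair differed by 1.68 to 4.63 per degree of freedom of a chi-square that takes reads as independent, where sampling noise alone gives about 1, and by at least 196 between different cells. Each pair was therefore counted as 1 cell, with the mean of its TPM, and 1 further library with Ddx4 at 0 TPM and 1408459 reads was set aside. All other cells are used below. Their depth ran from 4837063 to 33117438 estimated reads, with a median of 9669903.

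The germ cell markers Ddx4, Dazl and Sycp3 were at 1 TPM or more in all of these cells, Mael in 98.6% and Tex101 in 91.3%. The pregranulosa markers summed to between 0 and 81.1 TPM per cell with a median of 0.14 TPM, and Foxl2 reached 1 TPM in 4 cells, of which 1 lay in group 1 and 3 in group 2 of the order described next. The summed blood and endothelium markers, mostly haemoglobin, ran from 0 to 324973 TPM with a median of 49.3 TPM, and 11 cells held over 10000 TPM. The summed stroma markers ran from 0 to 873 TPM, with a median of 7.20 TPM in group 1 and 1.10 TPM in group 5, and Nr2f2 was at 1 TPM or more in 36.2% of cells. The share of mitochondrial RNA averaged 5.28% in group 1 and 8.53% in group 5. Results without the cells of high blood markers or with Foxl2 are given at the end. The part of the stroma markers and of mitochondrial RNA in the results was not tested.

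Cells were ordered along the first principal component of 20 oocyte genes, none of them a Zfp gene, and cut into 5 groups of 28, 28, 27, 28 and 27 cells, called groups 1 to 5. Sycp2, a meiotic axis protein, averaged 420 TPM in group 1 and 46.2 TPM in group 5. Zp3, an egg coat protein, averaged 0.12 and 628 TPM. Both are among the 20 genes, and the order was turned so that Sycp2 is high at its start. These values therefore only name the ends. Group 1 is the end of high meiotic genes and group 5 the end of high oocyte growth genes. For each gene the log2 ratio is log2 of (mean TPM of group 5 + 1) over (mean TPM of group 1 + 1), and a gene is called higher or lower where the means differ by at least 1.5-fold. This is a size and not a test, and in simulated data the spread between cells alone put a sizeable share of genes with no simulated difference past it, so each count called holds such genes too. A gene low in 1 end group passed the mean of 5 TPM through the groups where it was high, as Zfp957, Zfp296, Zfp280c and Zfp389 did. The large ratios of such genes partly follow from the membership rule and are a description.

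The levels of the 229 genes spanned from 5.04 TPM to the 549 TPM of Zfp706 by the membership rule. Zfp706, which encodes a small protein with 1 finger, averaged 551 TPM over the cells used. Zfp57, the KRAB protein that keeps methylation at imprinted genes, followed at 155 TPM, then Zfp655 at 145.4 TPM, Zfp207 at 128.1 TPM and Zfp644 at 121.3 TPM. Zfp622 at 116.1, Zfp532 at 115.4, Zfp787 at 96.4, Zfp664 at 85.6, Zfp560 at 83.1, Zfp330 at 82.5 and Zfp451 at 78.9 TPM complete the 12 highest. The median over the 229 genes was 12.8 TPM, against 29.4 TPM over the 8813 coding genes. The 226 coding Zfp genes divided evenly by the KRAB box, and those with one had a median of 10.5 TPM and those without one 16.4 TPM.

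Most Zfp genes were seen in only some of the cells. The median gene was at 1 TPM or more in 55.1% of cells, against 75.4% for coding genes, and its coefficient of variation over cells was 1.73 against 1.23. At like levels these gaps were smaller. Zfp genes of 5 to 10 TPM were seen in a median of 37.0% of cells with a coefficient of variation of 2.19, and coding genes of that level in 38.4% with 2.11. Zfp genes of 20 to 50 TPM were seen in 67.8% of cells with a coefficient of variation of 1.44, against 75.4% and 1.22. At 50 TPM and over these values were 89.9% and 0.95 for Zfp genes, against 94.2% and 0.81. Zfp207 was seen in 98.6% and Zfp706 and Zfp451 each in 97.1% of cells. At the other end Zfp280c was seen in 23, Zfp389 in 24 and Zfp563 in 25 cells, although their means were 5.77, 15.4 and 6.17 TPM. A few cells thus carried much of the level of these genes, such as the cell with 261 TPM of Zfp389.

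Zfp57 had the clearest pattern along the order. In group 1 its lowest, median and highest values were 0, 0.11 and 133.7 TPM. In group 2 they were 0, 35.2 and 213 TPM, and in group 3 0.05, 104.6 and 374 TPM. In group 4 they were 36.1, 233 and 1265 TPM, and in group 5 94.5, 313 and 532 TPM. Zfp57 was at 1 TPM or more in 9 of 28 cells of group 1, 20 of 28 of group 2, 26 of 27 of group 3 and all cells of groups 4 and 5. The highest cell of group 1 lay above the lowest cell of group 5, so the end groups overlapped. The means went from 12.1 ± 27.9 to 292 ± 126.5 TPM (SD over cells, n = 28 and 27), a log2 ratio of 4.48 that stayed between 4.43 and 5.09 when any 1 cell of the end groups was left out. Under the other settings described at the end the ratio ran from 3.14 to 6.47. Spearman's rho of Zfp57 with the order was 0.79 over all cells used, the highest of the 229 genes, and this is a description since the cells share 1 litter.

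Zfp957, in which the spacing of cysteines and histidines searched here found no C2H2 finger, was seen mostly at the far end. It was at 1 TPM or more in 2 of 28, 0 of 28, 2 of 27, 9 of 28 and 23 of 27 cells of groups 1 to 5. In groups 1 to 4 the median cell was at 0 TPM, while group 5 held 0, 46.3 and 197 TPM as its lowest, median and highest values. Over all cells 36 or 26.1% were at 1 TPM or more (exact 95% interval 18.99% to 34.2%, which covers counting error only). Zfp957 passed the membership rule through the groups where it was high, so its ratio is a description. On this order and scale the log2 ratio was 5.16, the largest of the 229 genes, and stayed between 5.02 and 5.49 with any 1 cell left out. Under the other settings described at the end it ran from 4.44 to 6.32, whereas Zfp57 reached 6.47, so the rank of these genes depends on the setting. Zfp57 and Zfp957 were also the pair of Zfp genes whose levels went together most closely, at a rho of 0.50 over all cells used, the only one over 0.5 of 26106 pairs.

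Zfp296, known from pluripotent cells, followed toward the far end. It was at 1 TPM or more in 1 of 28 cells of group 1 and in 16 of 27 cells of group 5, with 6, 3 and 8 cells between. Its mean was 1.09 TPM in group 1 and 16.3 TPM in group 5, at a log2 ratio of 3.04. Zfp58, a KRAB gene, was seen in 6 of 28 and 25 of 27 cells of the end groups, with means of 5.99 and 48.1 TPM and a log2 ratio of 2.81. The next of the 10 largest ratios were Zfp825 at 2.69, Zfp442 at 2.53, Zfp947 at 2.48, Zfp513 at 2.06, Zfp810 at 1.92 and Zfp169 at 1.82. All of these but Zfp513 carry a KRAB box.

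**Figure D1:**
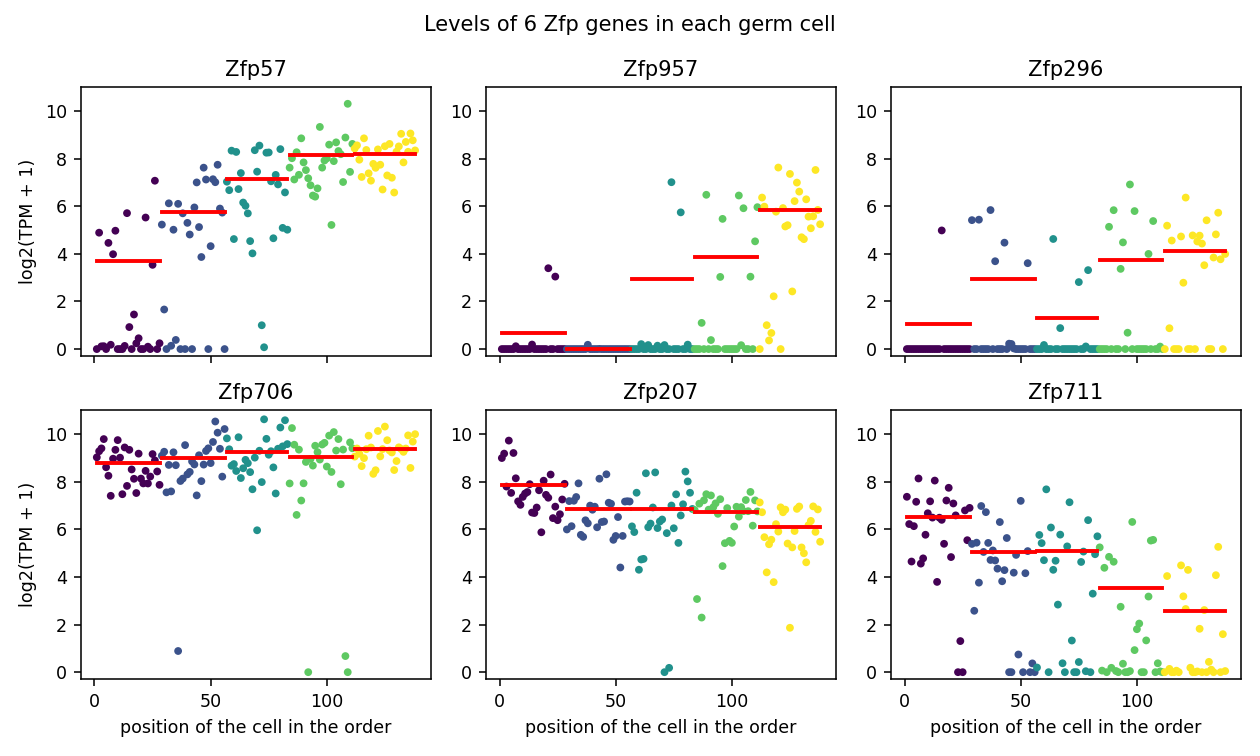
Levels of 6 Zfp genes in each cell used, as log2(TPM + 1), against the position of the cell in the order; colours mark the groups and red lines the mean TPM of each group on the same scale. Zfp57 is seen in 9 of 28 cells at the start and in all cells of groups 4 and 5, Zfp957 in 23 of 27 cells of group 5, and Zfp711 in 26 of 28 cells of group 1 and 10 of 27 of group 5.

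Zfp711, an X-linked gene whose protein brings a histone demethylase to promoters, was the counterpart of Zfp57 at the near end. Its lowest, median and highest values were 0, 86.2 and 281 TPM in group 1 and 0, 0.07 and 37.5 TPM in group 5. It was at 1 TPM or more in 26, 21, 18, 12 and 10 cells of groups 1 to 5. The mean went from 92.03 to 4.91 TPM, a log2 ratio of -3.98 with a range of -4.32 to -3.86 when 1 cell was left out.

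On this order and scale the pseudogene Zfp389 had the lowest ratio, -4.79, with means of 27.6 and 0.03 TPM. That ratio ran from -7.68 to -1.59 under the other settings, in all of which Zfp711 stayed at or below -3.15. It rested on few cells, since 7 of 28 in group 1 and 0 of 27 in group 5 were at 1 TPM or more. Zfp280c, also X-linked, was seen in 12 cells of group 1 and 1 of group 5, with means of 15.8 and 0.09 TPM and a ratio of -3.94. Its ratio ran from -6.36 to -1.88 under the other settings. Zfp41 followed at -3.46, seen in 21 and 6 cells. Zfp808 at -3.02, Zfp758 at -2.92, Zfp113 at -2.61, Zfp72 at -2.29, Zfp964 at -2.28 and Zfp3 at -2.26 completed the 10 smallest ratios. Of these Zfp808, Zfp758, Zfp113 and Zfp964 have a KRAB box.

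The upstream DNA of the leading genes is shown because the order was built partly on oocyte transcription factors. Figla and Sohlh1 belong to a family that binds CANNTG, and Nobox is a homeodomain protein of the kind that binds TAATTA or TAATTG. The sequences are the 250 bases before the annotated start from RefSeq (GRCm38.p6), 5′ to 3′ on the strand of the gene, and capitals mark CANNTG and TAATTA or TAATTG on either strand. Zfp957 is on the minus strand at chr14:79247368-79247617. Zfp57 has 3 annotated starts on the plus strand, of which the windows chr17:37000913-37001162 and chr17:37002275-37002524 hold a match and the window chr17:37003416-37003665 holds none. Zfp296 is on the plus strand at chr7:19577037-19577286, and its window also holds none. Zfp280c is on the minus strand at chrX:48594620-48594869.
Zfp957: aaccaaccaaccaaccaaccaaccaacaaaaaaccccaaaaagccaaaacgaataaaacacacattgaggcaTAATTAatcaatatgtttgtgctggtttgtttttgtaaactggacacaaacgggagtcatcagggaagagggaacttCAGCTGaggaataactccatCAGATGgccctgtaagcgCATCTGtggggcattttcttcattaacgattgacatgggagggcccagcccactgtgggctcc
Zfp57 (37000913): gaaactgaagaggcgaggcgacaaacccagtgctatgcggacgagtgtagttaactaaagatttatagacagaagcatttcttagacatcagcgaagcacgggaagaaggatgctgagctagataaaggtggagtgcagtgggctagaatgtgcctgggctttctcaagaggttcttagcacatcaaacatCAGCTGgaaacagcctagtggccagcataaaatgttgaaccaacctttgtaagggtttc
Zfp57 (37002275): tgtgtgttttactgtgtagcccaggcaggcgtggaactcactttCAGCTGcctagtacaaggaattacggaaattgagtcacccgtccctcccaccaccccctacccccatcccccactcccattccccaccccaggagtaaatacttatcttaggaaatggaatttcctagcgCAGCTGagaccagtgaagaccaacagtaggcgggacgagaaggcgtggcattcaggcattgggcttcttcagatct
Zfp57 (37003416): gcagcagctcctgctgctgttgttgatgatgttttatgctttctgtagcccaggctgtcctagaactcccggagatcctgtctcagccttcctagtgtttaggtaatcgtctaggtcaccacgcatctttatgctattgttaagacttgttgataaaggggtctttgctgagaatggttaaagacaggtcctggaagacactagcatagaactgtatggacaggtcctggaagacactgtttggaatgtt
Zfp296: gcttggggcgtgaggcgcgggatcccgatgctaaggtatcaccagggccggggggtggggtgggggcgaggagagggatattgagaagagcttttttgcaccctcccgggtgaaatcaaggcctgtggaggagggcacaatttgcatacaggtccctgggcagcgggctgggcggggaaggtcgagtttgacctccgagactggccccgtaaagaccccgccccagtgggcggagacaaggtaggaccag
Zfp280c: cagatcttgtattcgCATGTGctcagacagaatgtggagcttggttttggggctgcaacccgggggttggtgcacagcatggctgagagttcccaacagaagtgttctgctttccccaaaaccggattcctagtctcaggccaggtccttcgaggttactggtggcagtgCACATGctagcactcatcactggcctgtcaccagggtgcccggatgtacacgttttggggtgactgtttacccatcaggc

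The Zfp957 window holds 3 matches to CANNTG and 1 to TAATTA, and the Zfp280c window 2 to CANNTG and none to TAATTA or TAATTG. Of the 3 Zfp57 windows 2 hold 1 and 2 matches to CANNTG, and the third and the Zfp296 window hold none to either motif. Windows were found for 187 of the 229 genes. CANNTG was in 42.4% of the 59 windows of genes called higher, in 61% of the 100 windows of genes called lower and in 66.2% of all 32851 windows. TAATTA or TAATTG was in 5.08%, 11% and 11.3% of them. In the 78 windows of Zfp genes called neither higher nor lower the shares were 61.5% and 7.69%. All windows cover 27025 genes and were not limited to the 8813 coding genes or matched to Zfp genes by level. A match is a description of these letters and says nothing of binding. The windows of Zfp genes with a KRAB box held a median of 10 CpG in 250 bases and those without one 17, against 6 over all windows, and CCAAT was in 53.5%, 36.1% and 33.8% of them.

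Over the whole group, 49 of the 229 genes (21.4%) were higher in group 5 by at least 1.5-fold, against 22.2% of the 8813 coding genes. A larger share, 44.5%, was lower, against 39.1% of coding genes, and 78 genes lay between. The median log2 ratio was -0.37 for Zfp genes and -0.30 for coding genes, so as a group the Zfp genes lay close to the background. Per spike-in the medians were 0.29 and 0.48, with 38.4% of Zfp genes higher and 22.3% lower against 45.8% and 15% of coding genes, because the spike-ins took a median of 11147 TPM in group 1 and 6196 TPM in group 5. With logs of TPM + 1 taken before averaging, the medians were 0.045 and 0.048, with 32.8% of Zfp genes higher and 30.6% lower against 34.2% and 29.4% of coding genes. The direction of the group as a whole thus depends on the scale and on the way of averaging.

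Of the Zfp genes 20 (8.73%) stayed higher and 38 (16.6%) stayed lower by 1.5-fold under all 11 other settings and with any 1 cell left out, against 12.1% and 12.5% of the 8813 coding genes. Among the 20 were Zfp57, Zfp957, Zfp296, Zfp58 and Zfp655, and among the 38 Zfp711, Zfp280c, Zfp207, Zfp42 and Zfp445. The size of such ratios moved with the setting, for Zfp296 from 1.58 to 3.93 and for Zfp41 from -4.27 to -1.88.

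**Figure D2:**
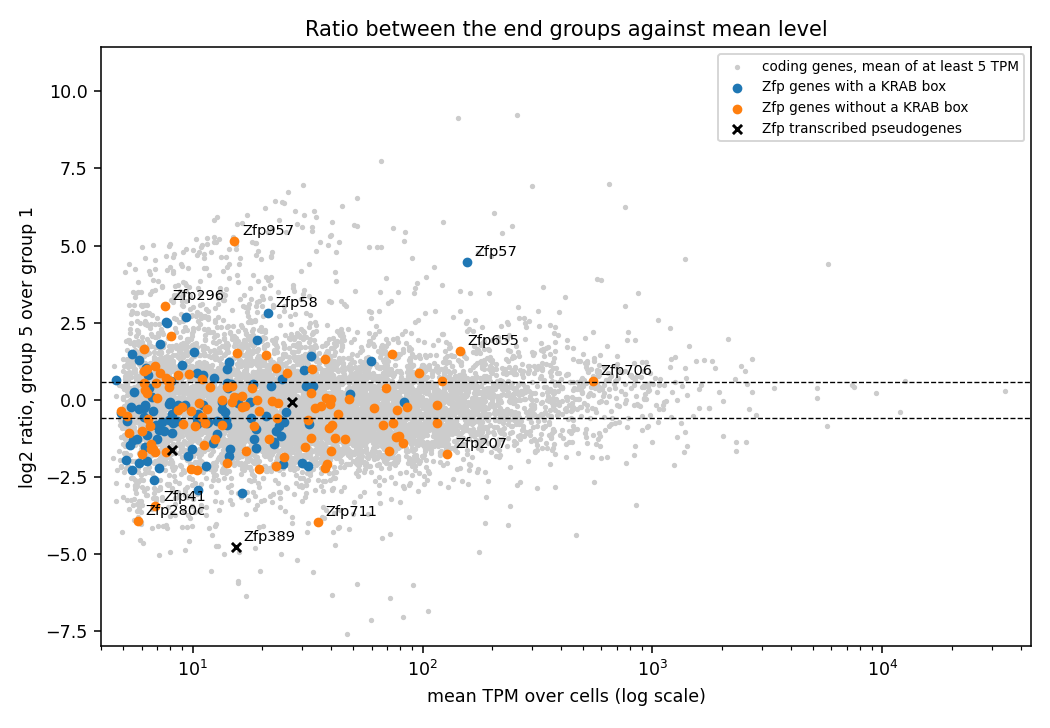
Log2 ratio of group 5 over group 1 against the mean TPM over cells on a log axis, for 8813 coding genes in grey and the 229 Zfp genes in colour; dashed lines mark 1.5-fold. The Zfp genes spread as the grey points do, with medians of -0.37 and -0.30, and Zfp957 at 5.16 and Zfp389 at -4.79 are their ends.

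The imprint and retroelement silencers were the role list with the most genes higher in group 5 than in group 1. Of its 9 genes that had a row, 7 passed the level, and 5 of the 7 (71.4%) were higher and 2 (28.6%) lower, against 22.2% and 39.1% of coding genes, with a median log2 ratio of 1.11 that ran from 0.73 to 2.11 under the other settings. Apart from Zfp57, these were Zfp708 at 1.47, Zfp961 at 1.42, Zfp809 at 1.11 and Zfp932 at 0.95, all of them KRAB genes known to bind retroelements. Zfp708 was higher in group 3 than in both end groups, by 0.84 on the log2 scale over the higher end. Of the 7 genes 3 had their highest mean in group 5. Zfp445, which like Zfp57 protects imprints, went the other way. Its lowest, median and highest values were 0, 33.3 and 208 TPM in group 1 and 0, 4.47 and 61.4 TPM in group 5, and its log2 ratio was -2.09, with -0.76 in the order by variable genes and -0.95 with 3 groups. The mean of Zfp445 was thus above that of Zfp57 in group 1, at 43.8 against 12.1 TPM, and below it in group 5, at 9.51 against 292 TPM. Zfp568, which silences a promoter of Igf2, was at -0.68. The list was chosen with earlier results of these data known, so its count is not independent evidence.

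The KRAB genes as a class did not follow Zfp57. Their median log2 ratio was -0.46, with 21.2% higher and 46.9% lower, against -0.29 with 22.1% higher and 41.6% lower for the coding Zfp genes without a KRAB box and 22.2% and 39.1% of all coding genes. The difference of -0.17 between these medians was 0.094 in the other direction when CPM from estimated counts replaced TPM. Both medians turned above 0 per spike-in, at 0.26 with and 0.43 without a KRAB box, and by means of logs, at 0.045 and 0.065. The summed TPM of the KRAB genes had a median of 1781 per cell in group 1 and 1830 in group 5, within a range of 1170 to 3459 in group 1 alone. The sum of the other genes had medians of 3989 and 3289 TPM.

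All 10 genes with a SCAN box were lower in group 5 by at least 1.5-fold in this order and scale, against 39.1% of coding genes and 44.5% of Zfp genes. Per spike-in and in an order by variable genes only 5 of the 10 were, with 8 and 7 below 0, and with 1 cell left out at least 9 were. The box was looked at after the values were seen, so the count is a description. Their ratios were -2.09 for Zfp445, -1.88 for Zfp213, -1.76 for Zfp449, -1.69 for Zfp446, -1.27 for Zfp24, -1.24 for Zfp397, -0.91 for Zfp444, -0.82 for Zfp110, -0.81 for Zfp263 and -0.76 for Zfp369. Their median of -1.25 stayed below 0 under all 11 other settings, from -1.30 to -0.60, the smallest per spike-in. In Zfp397, Zfp444, Zfp446, Zfp263 and Zfp369 the estimated counts were not whole numbers in most cells, a sign that the reads were shared with another gene. Of the 15 coding Zscan and Zkscan genes at 5 TPM or more 2 (13.3%) were higher and 9 (60%) lower, and of the 22 Zbtb genes 2 (9.09%) were higher and 12 (54.5%) lower, against 22.2% and 39.1% of all coding genes. The median ratios of these 2 families were -0.68 and -0.71, but -0.068 and 0.093 per spike-in.

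4 of the 229 genes lie on the X chromosome, and 3 of them were lower, Zfp711, Zfp280c and Zfp449. Of the 319 coding X-linked genes of at least 5 TPM 54.2% were lower, against 39.1% of all coding genes.

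Of the pluripotency-linked list 5 of 6 genes passed the level, 2 of them (40%) higher and 3 (60%) lower, against 22.2% and 39.1% of coding genes. Zfp42, also called Rex1, had medians of 29.2, 7.37, 0, 0 and 3.59 TPM in groups 1 to 5, and was seen in 24, 18, 9, 9 and 18 cells. Its means were 36.4, 19.1, 13.8, 4.55 and 10.8 TPM, lowest in group 4, and its log2 ratio was -1.66. Zfp322a was at -2.24 and Zfp281 at -0.84. Zfp217 was at 1.08, and Zfp296 was described above.

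Of the 11 chromatin and promoter factors that passed the level, 3 (27.3%) were higher and 5 (45.5%) lower, close to the 22.2% and 39.1% of coding genes. Their median ratio was -0.54, but 0.42 per spike-in and 0.13 by means of logs. Zfp687 was at -2.08, Zfp219 at -1.71, Zfp410, an activator of Chd4, at -1.68, Zfp384 at -1.47 and Zfp148 at -0.82. Chd4 itself averaged 40.7 TPM in group 1 and 36.5 TPM in group 5, a log2 ratio of -0.15. Zfp609 at 0.99, Zfp277 at 0.85 and Zfp644 at 0.62 were higher, and Zfp143 at 0.42, Zfp592 at -0.024 and Zfp652 at -0.54 lay between.

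Among the genes of RNA, ribosome, spindle and ubiquitin or SUMO roles 12 of the 13 with a row in the tables passed the level, with 3 (25%) higher, 5 (41.7%) lower and 4 between, close to the 22.2% and 39.1% of coding genes. The median ratio of the list was -0.34, but 0.33 per spike-in and 0.052 by means of logs. Zfp207, a spindle protein, had a lowest, median and highest value of 57.8, 177 and 848 TPM in group 1 and 2.64, 59.1 and 139.4 TPM in group 5, at a log2 ratio of -1.76. Zfp451, a SUMO ligase, was at -1.19, Zfp622, a factor of ribosome assembly, at -0.75, Zfp326 at -0.66 and Zfp106 at -0.61. Zfp622, Zfp326 and Zfp106 changed sign per spike-in. Zfp706 was at 0.61, with medians of 378 and 660 TPM in the end groups, Zfp598, a sensor of stalled ribosomes, at 0.65 and Zfp830 at 0.99. Zfp593 at 0.093, Zfp385b at -0.034, Zfp91 at -0.23 and Zfp346 at -0.45 lay between.

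Of the 8 progenitor and differentiation factors only Zfp292 passed the level, at 14.1 TPM and a ratio of 0.40. Zfp423, Zfp521, Zfp516, Zfp703, Zfp503, Zfp536 and Zfp608 were between 0.10 and 3.04 TPM. Zfp35, Zfp59 and Zfp318, first described in the male germ line, were at -0.76, -1.47 and -0.81.

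**Figure D3:**
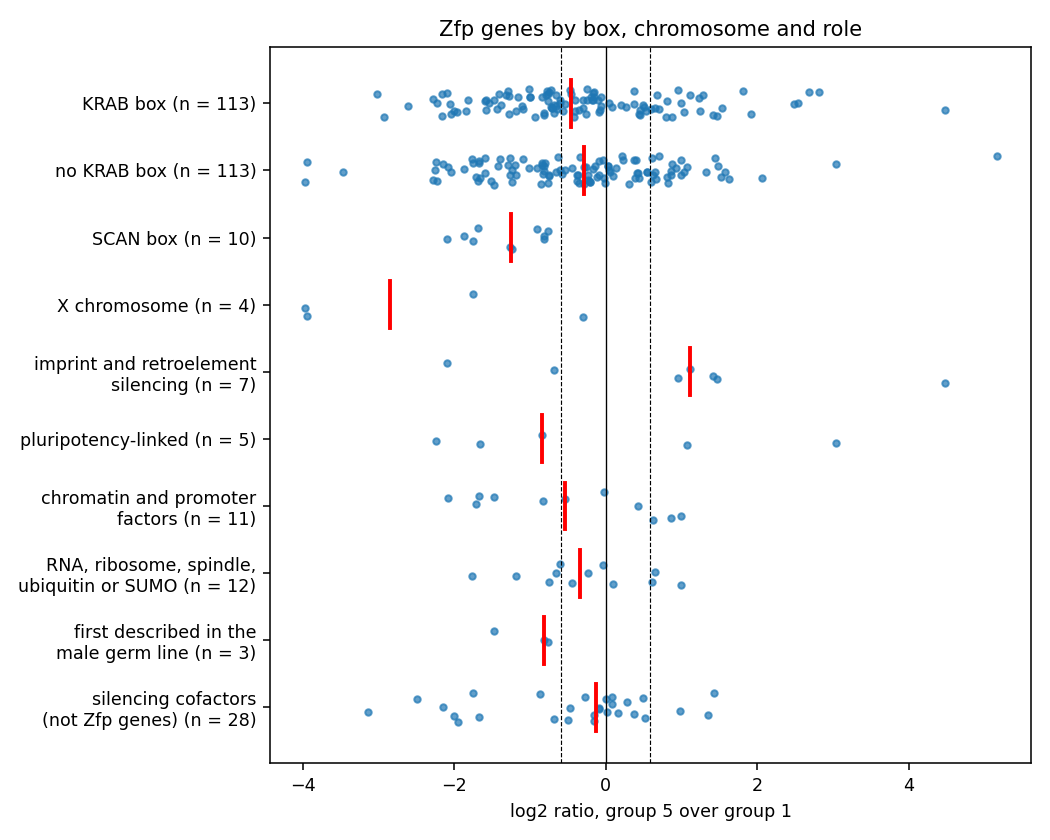
Log2 ratio of group 5 over group 1 for the Zfp genes by protein box, chromosome and role, and for the silencing cofactors, 1 point per gene; red bars are medians and dashed lines mark 1.5-fold. On this order and scale all 10 SCAN genes lie to the left of the dashed line at 1.5-fold lower (5 per spike-in or by variable genes) and 5 of 7 imprint and retroelement silencers to the right of the other.

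The partners through which KRAB proteins act were measured beside them. The listed cofactors matched 28 rows of the tables, all at 1 TPM or more, and 3 (10.7%) were higher, 9 (32.1%) lower and 16 between, both shares under the 22.2% and 39.1% of coding genes, with a median log2 ratio of -0.13 that was 0.56 per spike-in and 0.14 by means of logs. Trim28, which binds the KRAB box, averaged 199, 158, 189, 138.5 and 140.8 TPM in groups 1 to 5 at a ratio of -0.50, which was 0.28 per spike-in and -1.36 from CPM. Setdb1 was at -0.69, but at 0.25 in the order by variable genes and 0.14 per spike-in. Atf7ip, which stabilises Setdb1, was at -1.75 and its germ cell relative Atf7ip2 at -3.13, with means of 160 and 17.3 TPM. The histone deacetylase Hdac1 was at -2.14 and the methyltransferase Suv39h1 at -2.49, whereas Hdac2 was at 0.01 and Dnmt1 at 0.00. The chromatin remodeller Atrx was at 1.35, Trim24 at 1.42 and Mbd3 at 0.98.

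The number of Zfp genes seen in a cell differed along the order. The median cell had 57.2% of the 229 genes at 1 TPM or more in group 1, 53.7% in group 2, 47.2% in group 3, 53.9% in group 4 and 65.9% in group 5. The lowest and highest cells held 30.1% and 77.7% in group 1, 10.5% and 70.3% in group 3 and 34.5% and 83.4% in group 5, so the groups overlapped. With each cell thinned to 1000000 reads the medians were 61.1%, 57.9%, 55.9%, 58.3% and 73.4% of the genes. Over all coding genes the thinned medians were 7670.5 genes in group 1, 7162 in group 3 and 8936 in group 5. The summed TPM of the 229 genes had medians of 5757 in group 1 and 5163 in group 5, a log2 ratio of the means of -0.21 that was 0.56 per spike-in.

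**Figure D4:**
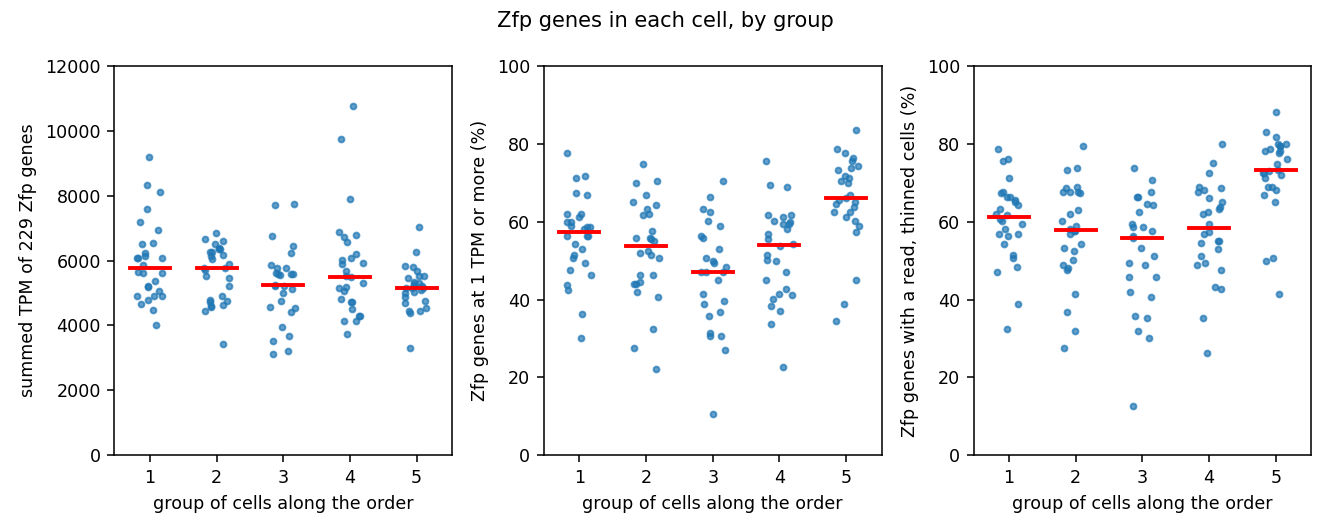
Summed TPM of the 229 Zfp genes, share at 1 TPM or more, and share with a read after thinning to 1000000 reads, for each cell used by group; red lines are medians. The share of genes has its highest median in group 5, 65.9% and 73.4%, while the median summed TPM goes from 5757 in group 1 to 5163 in group 5, a direction that turns per spike-in.

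Some Zfp genes were highest or lowest in the middle of the order. 25 genes (10.9%) were lower in group 3 than in both ends by at least 1.5-fold, against 5.61% of coding genes, and 17 of the 25 have a KRAB box. Among genes of 20 to 50 TPM this was 11.5% of Zfp genes and 4.61% of coding genes, among those of 5 to 10 TPM 15.6% and 13.1%, and among those of 10 to 20 TPM the share was lower in Zfp genes, 6.06% against 8.56%. Zfp12 had means of 16.1, 0.75 and 6.04 TPM in groups 1, 3 and 5, Zfp248 17.97, 2.40 and 13.3 TPM and Zfp579 6.09, 0.58 and 10.5 TPM. Fewer coding genes were also seen in cells of group 3, and the part of this in the count was not tested. 9 genes (3.93%) were higher in group 3 than in both ends, against 5.57% of coding genes. Of these Zfp385b had means of 13.4, 36.7 and 13.1 TPM, Zfp251 5.60, 13.5 and 4.16 TPM and Zfp740 7.76, 15.99 and 6.16 TPM. Zfp629 had means of 6.88, 36.8 and 18.7 TPM, with its peak of 100.5 TPM in group 4. Zfp97 and Zfp729a lay above the higher of the end groups in group 3 by 0.97 and 0.86 on the log2 scale.

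Zfp genes lie in clusters, with 52 of the 229 on chromosome 7, 30 on chromosome 17, 20 on chromosome 13 and 17 on chromosome 8. Neighbours did not move together much. The 166 pairs within 200 kilobases of each other had a median Spearman's rho of 0.09 over all cells used, against 0.07 for all 26106 pairs, and none exceeded 0.5. The closest neighbours by rho were Zfp868 and Zfp869 on chromosome 8, at 0.42. Zfp809 and Zfp810 on chromosome 9, 33394 bases apart, had a rho of 0.26 and ratios of 1.11 and 1.92.

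After Zfp957, the genes most like Zfp57 over all cells used were Zfp692 at a rho of 0.42, Zfp58 at 0.42, Zfp169 at 0.41, Zfp810 at 0.39 and Zfp442 at 0.37. The genes most unlike it were Zfp711 at -0.44, Zfp330 at -0.40, Zfp518a at -0.38 and Zfp207 at -0.34.

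Estimated counts that are not whole numbers limit some of these values. In 77 of the 229 genes (33.6%) the estimated count was not a whole number in at least 50% of the cells with reads, which happens where reads are divided between genes, and this held for 43 KRAB genes and 34 without a KRAB box. Zfp57, Zfp711 and Zfp280c had whole counts in all cells and Zfp957 had counts that were not whole in 2.04% of cells with reads. The values of the 77 genes are uncertain. Besides the SCAN genes above, those named here are Zfp729a at 98.3%, Zfp113 at 97.5%, Zfp97 at 83.5%, Zfp706 at 83.1%, Zfp410 at 83.1%, Zfp12 at 79.4%, Zfp169 at 76.1%, Zfp90 at 73.97%, Zfp248 at 71.1%, Zfp932 at 69.5%, Zfp277 at 66.7%, Zfp964 at 64.3%, Zfp808 at 58.2%, Zfp451 at 54.01%, Zfp579 at 52.6%, Zfp644 at 52.2%, Zfp442 at 51.2% and Zfp322a at 50.4%. The 77 genes had a median ratio of -0.37 and the other 152 likewise -0.37.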

How the data were processed

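Per the study's methods, the authors counted Smart-seq2 reads of single germ cells with Salmon against mm10 with ERCC sequences added, and removed libraries with Foxl2. The deposited TPM are relative to 1 total per library. The deposited estimated counts of reads are not normalized and need not be whole. The FastQC and Salmon names come from the submitters' processing notes.

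TPM of the 7 library pairs were averaged and their counts summed. Symbols were matched to GENCODE M21 (GRCm38), which gave positions, coding genes and protein sequences. KRAB and SCAN boxes were found with a profile of 36 residues and a minimum of 20 bits, and fingers by the spacing of cysteines and histidines, in the longest coding sequence of each gene. The ratio used a pseudocount of 1 TPM, and no gene was filtered beyond the mean of 5 TPM. A count was called whole within 0.001. Because the labels name no animal, no test was made, and SDs and intervals over cells do not measure the spread between animals. Reads carry no molecular identifiers.

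Named genes are the 12 with the highest mean, the 10 largest and 10 smallest ratios, 6 highest and 3 lowest in group 3, the 3 most and 3 least detected, the 5 on each side of the limit and the members of the role lists, and others were chosen after their values were seen. The members, lists and rules were chosen with earlier results of these data known. The order of cells and the ratio between the end groups were tested on simulated data, and the other steps were not. Python 3.11.15, pandas 2.3.3, SciPy 1.17.1 and scanpy 1.11.5 were used.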

Additional observations from a re-analysis of the deposited data

How the results depend on the processing

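The cells are 1 sample of 1 litter, so how far these values hold in other animals cannot be told from them, and no paired or replicate fit exists. No paired analysis was possible because the results come from no test and there is 1 group. Zfp genes of 5 to 10 TPM were seen in a median of 37.0% of cells, so their group means rest on fewer cells than those of higher genes. Of the 362 Zfp rows 63.3% were kept, against 38.4% at a minimum of 10 TPM and 23.8% at a median of at least 5 TPM. The median log2 ratio of the Zfp genes was -0.37, and -0.25 with 3 groups of cells, -0.20 from estimated counts as CPM, 0.045 by taking logs of TPM + 1 before averaging and 0.29 per spike-in. 88 genes were higher and 51 lower per spike-in (45.8% and 15% of coding genes), and 75 were higher and 70 lower by the means of logs (34.2% and 29.4% of coding genes). With 1 cell left out the median ran from -0.42 to -0.31 and the count higher from 45 to 52. The KRAB genes less the others gave -0.0445 with 3 groups, 0.094 from CPM, -0.020 by the means of logs, -0.28 with the cell without Ddx4 added and -0.27 to -0.0929 with 1 cell left out. The median of the cofactors was 0.56 per spike-in, -0.0018 from CPM, 0.14 by the means of logs and -0.19 to -0.09 with 1 cell left out. The summed TPM was at 0.56 per spike-in and at -0.23 to -0.18 with 1 cell left out. With at least 1 estimated read a median of 168 genes were seen per cell. Zfp81 (0.25), Zfp326 (0.54), Zfp369 (0.64), Zfp446 (0.25), Zfp263 (0.0030) and Setdb1 (0.25) turned to values above 0, and Zfp579 (-2.97) to below 0, when cells were ordered by 2000 variable genes. Per spike-in Zfp81 (0.14), Zfp106 (0.11), Zfp326 (0.11), Zfp622 (0.087), Zfp110 (0.25), Zfp263 (0.13) and Setdb1 (0.14) turned to values above 0, as did Trim28 (0.28), which was not past 1.5-fold. Zfp579 turned to below 0 with 3 groups (-0.42) and from CPM (-0.18), as did Zfp629 from CPM (-0.039). The causes were not tested. The settings that follow were chosen after seeing the data. Leaving out the 11 cells with over 10000 TPM of blood markers gave 48 genes higher and 44.5% lower, against 21.6% and 39.9% of coding genes. Leaving out the 4 cells with Foxl2 gave 48 and 44.1%, against 22.1% and 39.2% of coding genes. Counting each library on its own gave 46 and 44.1%, against 22.2% and 38.1% of coding genes.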
